A study of Mus musculus with 2 samples.

Results

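The genes described here encode the kinases that phosphorylate the alpha subunit of the translation initiation factor eIF2 and the regulatory subunits of the phosphatase that reverses it. They were taken by symbol in the platform annotation, as 6 genes of 19057 named on the array, with 4 kinases (Eif2ak1, Eif2ak2, Eif2ak3 and Eif2ak4) and 2 phosphatase subunits (Ppp1r15a and Ppp1r15b). These genes carried 10 of the 45281 probes, 2 probes each for Eif2ak1, Eif2ak3, Eif2ak4 and Ppp1r15b and 1 each for Eif2ak2 and Ppp1r15a. Messenger RNA was measured in femoral bone marrow from mice aged 8 days, with 1 Illumina MouseWG-6 v2.0 bead array for genotype Dnmt2-/- and 1 for wild type. Dnmt2, whose gene symbol is Trdmt1, is a methyltransferase of transfer RNA. No source used here gives the mutation removing it, the strain or how many mice gave each RNA, so an array may stand for 1 animal or for a pool.

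Phosphorylation of eIF2 alpha turns eIF2 into an inhibitor of its own exchange factor eIF2B, which lowers general translation while a few messages, above all that of the transcription factor ATF4, are translated more. Each kinase answers a different condition. HRI (Eif2ak1) responds to a lack of haem and keeps globin synthesis in step with haem in red cell precursors, PKR (Eif2ak2) responds to double-stranded RNA and is itself an interferon-stimulated gene, PERK (Eif2ak3) responds to unfolded protein in the endoplasmic reticulum, and GCN2 (Eif2ak4) responds to uncharged transfer RNA. GADD34 (Ppp1r15a), which is induced by the response, and CReP (Ppp1r15b), which is made constitutively, bring protein phosphatase 1 to eIF2 alpha.

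Each array has no replicate, so differences are given as sizes, without a test or an error, and they describe these 2 arrays. Probes with a detection p-value under 0.01 are called detected. Log2 ratios are the normalized value on the Dnmt2-/- array minus that on the wild type array, and the gene value is that of its brightest probe. Of all probes, 43.2% were detected on the Dnmt2-/- array and 41.4% on the wild type array. The fitted background was 94.9 intensity units (SD 3.43) on the Dnmt2-/- array and 90.9 (SD 3.16) on the wild type array. Across the 9746 genes detected on both arrays the median log2 ratio was -0.02, the 5th and 95th percentiles were -0.59 and 0.65, and the SD was 0.38. Probes of the same gene spread around their mean log2 ratio with a pooled SD of 0.29 over 3375 genes. Trdmt1 did not settle the labels. Its brightest probe gave 148.8 intensity units on the Dnmt2-/- array and 112.4 on the wild type array. Of its other probes, 1 had a log2 ratio of -0.27, and the other 2 were detected on the Dnmt2-/- array alone, at least 1.53-fold and 1.58-fold higher. No source used here gives the place of its probes relative to the deleted part. Xist gave 92.8 intensity units on the Dnmt2-/- array and 822.7 on the wild type array, so genotype label and sex cannot be told apart.

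Of the 6 kinase and phosphatase genes, 5 were detected on both arrays, and none of the 5 reached 1.5-fold in either direction, where 6.61% of all genes detected on both arrays were at least 1.5-fold higher on the Dnmt2-/- array and 5.16% at least 1.5-fold lower. With 5 genes, a count of 0 is near that background. At any size, 4 of the 5 were higher on the Dnmt2-/- array and 1 was lower, where 48.3% of all genes were higher. Their median log2 ratio was 0.16, and the values ran from -0.50 for Eif2ak3 to 0.35 for Ppp1r15b. Among the probes, 6 of 10 were detected on both arrays, and the other 4 were below the detection limit on both. In RNA from whole marrow, fewer cells of a type and less RNA per cell cannot be told apart.

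**Figure D1:**
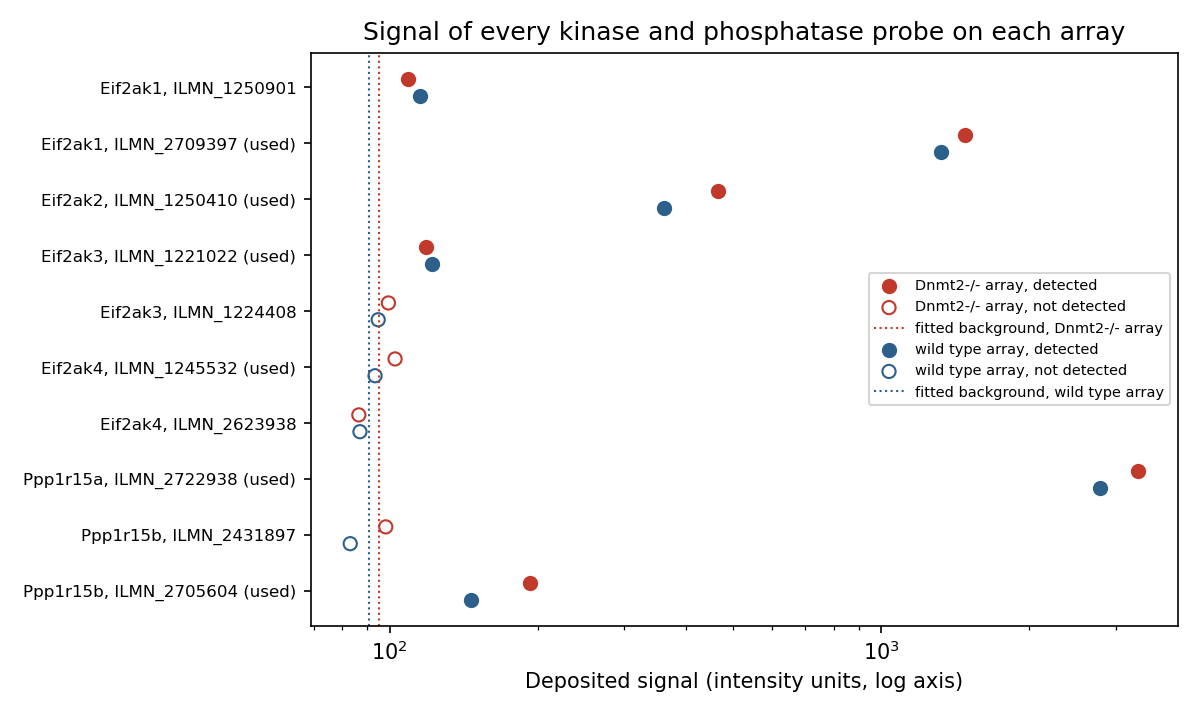
Deposited signal in intensity units (log axis) of all 10 probes of the 6 genes, with the Dnmt2-/- array in red above the wild type array in blue, open circles for probes not detected, and dotted lines at the fitted background of each array. Ppp1r15a, the brighter Eif2ak1 probe and Eif2ak2 lie far above background on both arrays, and both Eif2ak4 probes lie at it.

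Eif2ak1, the haem-regulated kinase, had a ratio near 0 by its brighter probe. Its brighter probe, ILMN_2709397, gave a signal of 1477 on the Dnmt2-/- array and 1320 on the wild type array. After normalization this was a log2 ratio of 0.04 (1.03-fold), and 91.4% of all genes detected on both arrays had a ratio at least as far from 0. Its dimmer probe, ILMN_1250901, gave 109.0 on the Dnmt2-/- array and 115.3 on the wild type array, only 14.2 and 24.4 intensity units above the fitted background, with a log2 ratio of -0.63. That was the 1 probe of these genes detected on both arrays that passed 1.5-fold. Among all detected probes of like dimness, with a mean normalized log2 level of at most 6, 5.88% were at least 1.5-fold lower. The ratio of this probe was -0.20 without background correction. The probes of Eif2ak1 thus did not give the same ratio, at 0.04 in the brighter and -0.63 in the dimmer.

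HRI works in the red cell lineage, and the erythroid markers are given beside it. Of 15 erythroid markers detected on both arrays, 12 were higher on the Dnmt2-/- array, 3 of them by at least 1.5-fold, with a median log2 ratio of 0.20. Of all genes detected on both arrays, 48.3% were higher at any size and 6.61% at least 1.5-fold higher. The transferrin receptor gene Tfrc was 1.84-fold higher and the erythroid transcription factor gene Klf1 1.52-fold higher, while the globin gene Hba-a1 had a log2 ratio of 0.08. The 3 lower markers were Alas2 (log2 ratio -0.24), Sptb (-0.09, with -0.49 and -0.34 in its other probes) and Slc4a1 (-0.03). The summed signal of the erythroid markers above background, not scaled between arrays, was 98437 on the Dnmt2-/- array and 91733 on the wild type array, and of these markers only Epb42 was not detected on either. The haem oxygenase gene Hmox1, whose product breaks down haem, was 1.72-fold lower on the Dnmt2-/- array, with signals of 323.6 there and 424.2 on the wild type array. The part of cell composition in the Eif2ak1 value was not tested.

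Eif2ak2, the kinase activated by double-stranded RNA, was slightly higher on the Dnmt2-/- array. Its probe gave a signal of 464.5 on the Dnmt2-/- array and 361.4 on the wild type array. These were 369.6 and 270.5 intensity units above the fitted background. The normalized log2 ratio was 0.16 (1.11-fold), which 64.6% of all genes matched or exceeded in size. Within the class of genes of like brightness (1949 genes, 1 of 5 equal classes), the 5th and 95th percentiles of the ratio were -0.55 and 0.61. Eif2ak2 is known to be transcribed in answer to interferon, and its promoter is shown here because other interferon-stimulated genes were lower on the same array. The sequence is from the RefSeq promoter table, from 250 bases before the annotated start to 30 bases after it, with the match to the interferon-stimulated response element in capitals.
Eif2ak2, chr17:78882543-78882822, minus strand, GRCm38.p6: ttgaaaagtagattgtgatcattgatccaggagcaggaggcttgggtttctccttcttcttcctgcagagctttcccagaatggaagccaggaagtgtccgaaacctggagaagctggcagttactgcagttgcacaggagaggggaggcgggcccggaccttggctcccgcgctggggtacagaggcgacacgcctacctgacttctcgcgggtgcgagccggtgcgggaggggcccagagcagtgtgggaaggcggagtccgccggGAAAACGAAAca
The motif searched was a pair of GAAA half-sites with any 2 bases between them, on both strands, and the match began at position 19 counted from the start as 1. It was present in 3.44% of all 32851 promoter windows of 300 bases.

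The interferon-stimulated genes other than Eif2ak2 were mostly lower on the Dnmt2-/- array. Of 24 listed genes detected on both arrays, 20 were lower on the Dnmt2-/- array, 9 of them by at least 1.5-fold. The other 4 were higher, none by that much. Of all genes detected on both arrays, 48.3% were higher at any size and 5.16% were at least 1.5-fold lower. The median log2 ratio of the listed genes was -0.28, against -0.02 over all genes. Those furthest down were Ifi27l2a (3.18-fold lower), the sensor of double-stranded RNA Oas1g (2.51-fold lower), the ubiquitin-like modifier gene Isg15 (2.0-fold lower), the tetherin gene Bst2 (1.90-fold lower) and the viperin gene Rsad2 (1.85-fold lower). Rsad2 gave signals of 2981 on the Dnmt2-/- array and 5433 on the wild type array. Ifit3, Oasl2, Irf7 and Oas2 were also among the 9 but dim. Their signals were 105.5 to 149.6 on the Dnmt2-/- array and 115.8 to 174.5 on the wild type array. Over the 6 settings their weakest log2 ratios were -0.43, -0.42, -0.30 and -0.25, short of 1.5-fold. Furthest up were Irf9 and Stat2, each with a log2 ratio of 0.45 by the brightest probe. The other probe of Irf9 gave 0.03. The Stat2 probe was dim, with signals of 125.8 on the Dnmt2-/- array and 104.4 on the wild type array. Adar, which edits double-stranded RNA and keeps PKR inactive, had a log2 ratio of 0.09 in its brightest probe, with -0.78 to 0.60 in its others. Of 25 listed genes with a promoter window, 12 held this motif, as Eif2ak2 did, compared with 3.99% of all genes with a window. Under each of the 6 processing settings Eif2ak2 had a positive ratio, from 0.13 to 0.36, and Isg15, Rsad2, Bst2, Oas1g and Ifi27l2a each had a negative one.

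Most macrophage markers were also lower on the Dnmt2-/- array, and their part in the interferon result was not tested. Of 10 macrophage markers detected on both arrays, 8 were lower, 3 of them by at least 1.5-fold, with a median log2 ratio of -0.19. Of all genes detected on both arrays, 48.3% were higher at any size and 5.16% at least 1.5-fold lower. The summed signal above background was 5105 on the Dnmt2-/- array and 5585 on the wild type array. Cd163 and Siglec1 were detected on the wild type array alone, but close to background, with signals of 111.1 and 101.6 there. Adgre1, which encodes F4/80, was 1.86-fold lower, C1qc 1.79-fold lower and C1qa 1.63-fold lower. Csf1r and Cd14 were higher, with log2 ratios of 0.20 and 0.42. The Cd14 probe was dim, with signals of 147.4 on the Dnmt2-/- array and 116.9 on the wild type array. Vcam1, with signals of 2533 on the Dnmt2-/- array and 2460 on the wild type array, had a log2 ratio of -0.004.

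Eif2ak3, the endoplasmic reticulum kinase, was the 1 gene of the set with a lower value on the Dnmt2-/- array. Its brighter probe, ILMN_1221022, gave a signal of 118.7 on the Dnmt2-/- array and 122.1 on the wild type array. These lay 23.8 and 31.2 intensity units above background, so the probe was dim on both arrays. The log2 ratio was -0.50 (1.42-fold lower), a size that 17.3% of all genes matched or exceeded. In the class of like brightness, the dimmest, the 5th and 95th percentiles were -0.61 and 0.67. Without background correction the ratio was -0.18, and in the authors' processed values -0.17. The second probe, ILMN_1224408, was not detected, with signals of 99.3 on the Dnmt2-/- array and 94.7 on the wild type array.

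Other genes of the endoplasmic reticulum stress response were divided. Of 18 detected on both arrays, 10 were higher on the Dnmt2-/- array and 8 lower, with a median log2 ratio of 0.09. In each direction 2 were past 1.5-fold. Across all genes detected on both arrays, 48.3% were higher at any size, 6.61% at least 1.5-fold higher and 5.16% at least 1.5-fold lower. The co-chaperone gene Dnajb9 was 1.80-fold higher by its brightest probe, with a log2 ratio of 0.40 in its other probe. Ern1, which encodes the parallel sensor IRE1, was 1.72-fold higher. The Ern1 probe was dim, with signals of 130.3 on the Dnmt2-/- array and 101.0 on the wild type array, and its log2 ratio ran from 0.25 to 0.91 over the 6 settings. Sdf2l1 was 1.67-fold lower. Hspa5, which encodes the chaperone BiP that binds PERK and IRE1, was 1.84-fold lower, but its probe gave only 109.5 on the Dnmt2-/- array and 123.1 on the wild type array, close to background. Dnajc3, which encodes an inhibitor of PERK and PKR, had a log2 ratio of -0.24.

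Eif2ak4, the kinase that senses uncharged transfer RNA, was not detected on either array. Its brighter probe, ILMN_1245532, gave a signal of 102.5 on the Dnmt2-/- array, with a detection p-value of 0.0105 that just missed the threshold, and 93.3 on the wild type array, with a detection p-value of 0.173. At a threshold of 0.05 it would count as detected on the Dnmt2-/- array alone and would be at least 1.13-fold higher there. The other probe, ILMN_2623938, gave 86.5 on the Dnmt2-/- array and 87.0 on the wild type array, below the fitted background of both. No fold is given for this gene, and a difference in it was not detectable at this signal. The GCN2 activator gene Gcn1 was likewise not detected on either array, at 93.5 on the Dnmt2-/- array and 90.3 on the wild type array. Impact, whose product inhibits GCN2, was detected, with a log2 ratio of 0.23 in its brightest probe and -0.71 in another.

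**Figure D2:**
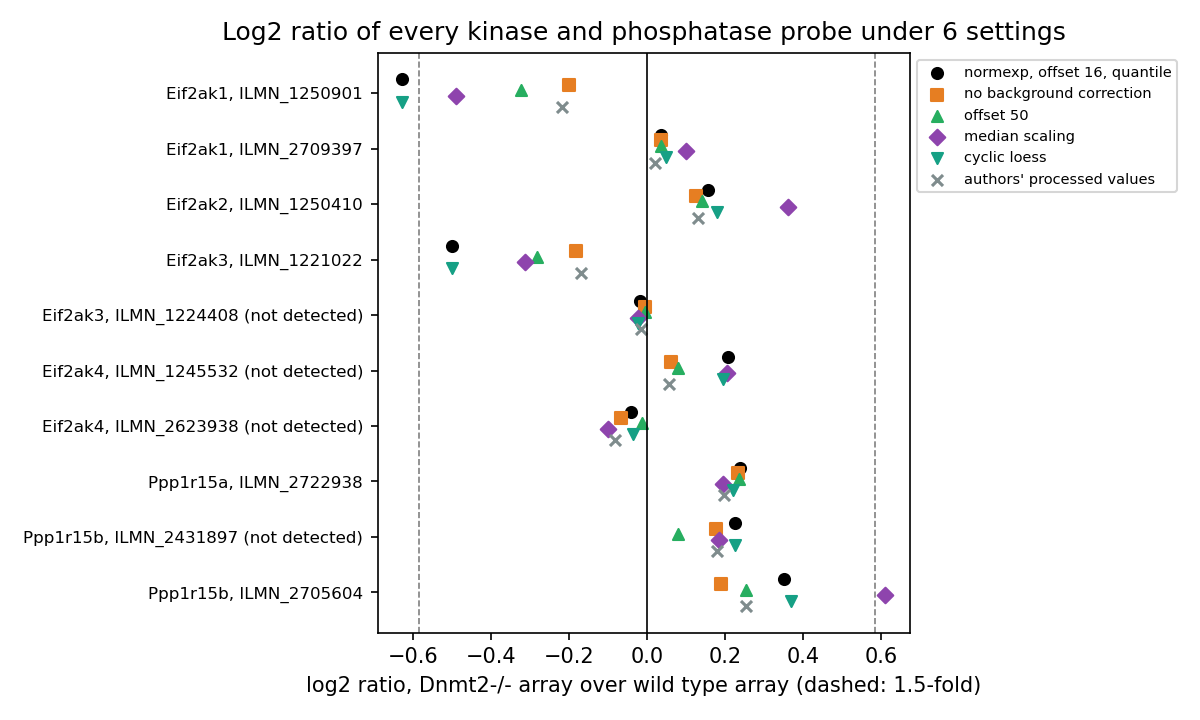
Log2 ratio of the Dnmt2-/- array over the wild type array for each of the 10 probes (rows) under 6 processing settings (symbols), with dashed lines at 1.5-fold. Ppp1r15a stays between 0.20 and 0.24, whereas the dim probes of Eif2ak1 and Eif2ak3 move towards 0 without background correction.

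Ppp1r15a, the inducible phosphatase subunit, had a bright probe with a small positive ratio. Its probe gave a signal of 3326 on the Dnmt2-/- array and 2780 on the wild type array, far above background on both. The log2 ratio was 0.24 (1.18-fold), and it ran from 0.20 to 0.24 over the 6 settings. With median scaling, which moved the median of all genes to 0.14, the ratio relative to that median was 0.05. A ratio of at least this size was found in 48.5% of all genes, and the 5th and 95th percentiles in its class of brightness, the brightest, were -0.48 and 0.50. The promoter is shown because GADD34 is an induced member of the response and several other genes of that response were higher on this array. The window is from the same table, and the capitals mark the cyclic AMP response element TGACGTCA.
Ppp1r15a, chr7:45526239-45526518, minus strand, GRCm38.p6: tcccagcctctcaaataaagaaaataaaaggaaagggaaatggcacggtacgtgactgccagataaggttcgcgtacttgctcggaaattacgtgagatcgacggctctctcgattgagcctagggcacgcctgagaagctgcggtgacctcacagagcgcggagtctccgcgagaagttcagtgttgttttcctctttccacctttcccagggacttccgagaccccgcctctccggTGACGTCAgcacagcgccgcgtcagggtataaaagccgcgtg
The match began at position -12, and 1.79% of all windows held this motif. Of 30 genes of the response list with a window, 0 held it. The paired GAAA motif also matched in this window, at position -220. The C/EBP-ATF composite motif TGATGNAA, which ATF4 binds in many of its targets, was in none of the windows of the 5 genes in the table, compared with 4.51% of all genes and 10 of 30 genes of the response list. The promoter of Ppp1r15b was not analysed here. The CCAAT box, written CCAAT and found in 37.4% of all windows, matched in Eif2ak1 and Eif2ak3.

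Ppp1r15b, the constitutive phosphatase subunit, had the highest ratio of the set. Its brighter probe, ILMN_2705604, gave a signal of 192.5 on the Dnmt2-/- array and 146.0 on the wild type array. These were 97.7 and 55.0 intensity units above background. The log2 ratio was 0.35 (1.28-fold), which 31.7% of all genes matched or exceeded, and it lay within the 5th and 95th percentiles of its class of brightness (-0.67 and 0.73). With median scaling in place of quantile normalization it was 0.61, which is past 1.5-fold. Under that scaling 13.7% of all genes were at least 1.5-fold higher and the median of all genes was 0.14, so that the ratio relative to that median was 0.47. The second probe, ILMN_2431897, was not detected, with signals of 98.1 on the Dnmt2-/- array and 83.1 on the wild type array.

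The catalytic subunits of protein phosphatase 1, which Ppp1r15a and Ppp1r15b recruit, had small ratios by their brightest probes. The log2 ratio was 0.13 for Ppp1ca, -0.07 for Ppp1cb and 0.17 for Ppp1cc. Their other probes did not give the same ratios, and ran from -0.24 in Ppp1ca to 0.46 in Ppp1cb.

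**Figure D3:**
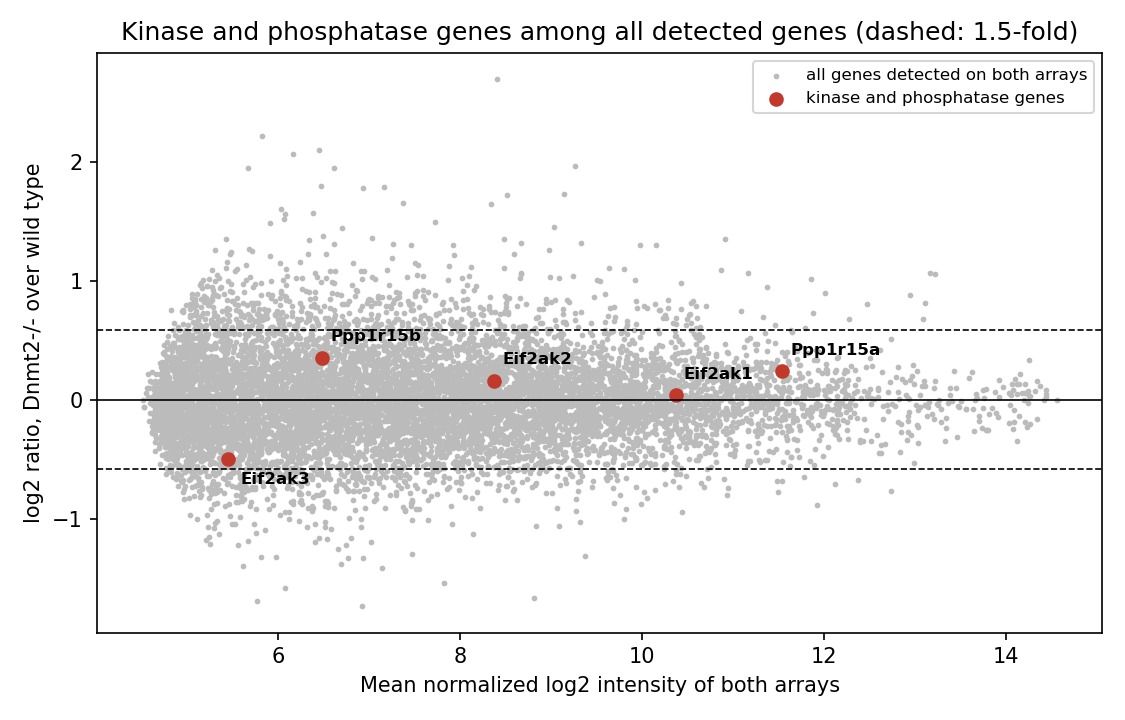
Log2 ratio of the Dnmt2-/- array over the wild type array (vertical axis) against the mean normalized log2 intensity of both arrays (horizontal axis) for 9746 genes detected on both (grey), with the 5 detected kinase and phosphatase genes in red and dashed lines at 1.5-fold. All 5 lie inside the dashed lines and within the cloud of genes of like brightness.

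The genes of the substrate complex, its exchange factor and related initiation factors went both ways. Of 11 genes for eIF2, eIF2B and these factors detected on both arrays, 4 were higher and 7 lower on the Dnmt2-/- array, with a median log2 ratio of -0.03. Of these, 1 passed 1.5-fold, the X-linked gamma subunit gene Eif2s3x, which gave 746.9 on the Dnmt2-/- array and 998.1 on the wild type array and was 1.58-fold lower. Its Y-linked counterpart Eif2s3y gave 466.8 on the Dnmt2-/- array and 89.8 on the wild type array, where it was not detected, and was at least 16.7-fold higher. For both genes sex and genotype label cannot be told apart. Of the rest, Eif2d, an initiation factor gene, had a log2 ratio of -0.56 (-0.07 in its other probe), the eIF2B subunit gene Eif2b3 one of -0.35 and Denr one of 0.43. The alpha subunit gene Eif2s1 is not named among the probes used here.

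Proteins that act on the kinases gave a median log2 ratio of -0.17 over 10 detected genes, with 4 higher and 6 lower. Nck1, which encodes an adaptor protein reported to restrain the eIF2 alpha kinases, was 2.57-fold higher on the Dnmt2-/- array, with signals of 312.5 there and 148.1 on the wild type array, and Hspa5 was the 1 gene of this list at least 1.5-fold lower. The log2 ratio of Nck1 ran from 0.86 to 1.61 over the 6 settings.

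Genes downstream of eIF2 alpha phosphorylation were more often higher than lower on the Dnmt2-/- array. Of 23 detected on both arrays, 15 were higher and 8 lower, with a median log2 ratio of 0.25. In all, 8 were at least 1.5-fold higher and none at least 1.5-fold lower. Of all genes detected on both arrays, 48.3% were higher at any size, 6.61% at least 1.5-fold higher and 5.16% at least 1.5-fold lower. Atf4 itself was 1.62-fold higher, with signals of 3351 on the Dnmt2-/- array and 2032 on the wild type array, and 1.07 in log2 ratio by its second probe. The genes furthest up are given by their brightest probes. The ATF4-induced pseudokinase gene Trib3 was 6.46-fold, Chac1 3.47-fold, the transcription factor gene Ddit3, which encodes CHOP, 3.31-fold, Vldlr 2.46-fold and Cebpg 2.33-fold higher. The second probe of Trib3 gave a log2 ratio of 1.67 against 2.69 in the first, and that of Cebpg 0.21 against 1.22. The log2 ratio of Chac1 ran from 0.97 to 2.04 over the 6 settings. Asns, the asparagine synthetase gene, was 1.19-fold higher, about as far as Ppp1r15a. Of the 8 lower genes, those furthest down were Shmt2 (log2 ratio -0.34), Sars (-0.28) and Aldh18a1 (-0.21). The other probe of Shmt2 gave 0.83 and that of Sars 0.02. These values and those of the kinases come from the same 2 arrays, and whether eIF2 alpha was phosphorylated was not measured.

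**Figure D4:**
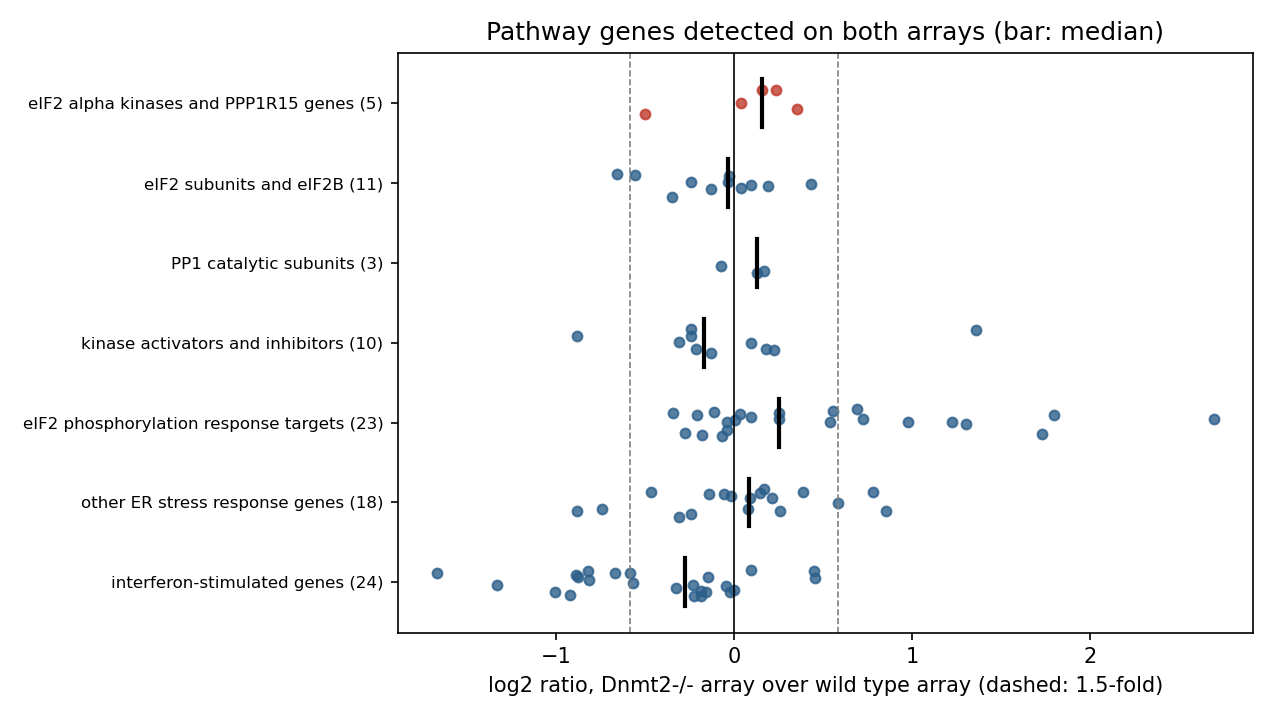
Log2 ratio of the Dnmt2-/- array over the wild type array for each gene detected on both arrays (points), in the kinase and phosphatase set (red, top row) and in 6 lists of pathway genes (blue), with the number of genes in brackets, the median as a bar and dashed lines at 1.5-fold. The kinase and phosphatase genes stay within 1.5-fold, while 8 response targets lie above it and 9 interferon-stimulated genes below it.

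Tissue outside the marrow cells also differed between the arrays, and its part in these values was not tested. Of 9 cartilage markers detected on both arrays all were higher on the Dnmt2-/- array, with a median log2 ratio of 1.48 and a summed signal above background of 3040 on the Dnmt2-/- array and 700.8 on the wild type array. Another 4, Col9a1, Col9a3, Col11a1 and Hapln1, were detected on the Dnmt2-/- array alone, and Matn3 and Cnmd were not detected on either. Of 14 skeletal muscle markers 13 were higher, with a median of 0.69 and summed signals of 17615 on the Dnmt2-/- array and 9245 on the wild type array. The medians were 0.74 for osteoblast markers (9 of 10 higher) and 0.80 for osteoclast markers (8 of 9 higher). Mmp9, whose log2 ratio of 0.80 was the osteoclast median, is also in the neutrophil list. Of all genes detected on both arrays, 48.3% were higher at any size. Neutrophil markers had a median of -0.12 (11 of 14 lower) and B cell markers one of 0.16 (6 of 9 higher). Both marrow lineages were detected on both arrays, with summed neutrophil signals of 110428 on the Dnmt2-/- array and 120486 on the wild type array.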

How the data were processed

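Femoral marrow RNA was hybridised to 1 array per genotype, per the labels' protocols, and groups follow the genotype labels. The deposited table gives 1 raw signal intensity and 1 detection p-value per probe and array. A second deposited table holds the authors' normalized intensities, with 1071 blank probes. No source used here names the normalization. It was used as an alternative, after log2. Background was corrected by normexp from the detection p-values (limma 3.58.1, R 4.3.3), an offset of 16 was added, and log2 values were quantile normalized. The offset shrinks folds of dim probes most. A gene is its brightest probe. A bound sets the dimmer array to the higher of its own value and the lowest detected one. Probes were named from the platform annotation: 34885 have 1 symbol, 18 several and 10378 none here, and 34807 were matched to GRCm38.p6 by gene identifier. With 1 array per genotype no test was run, and 2 arrays allow no ranking of genes by likeness. The number of arrays limits the precision. All probes of the 6 genes are named, with pathway genes past 1.5-fold (up to 5 per list and direction) and some fixed names. Erythroid, macrophage and cartilage markers, Mmp9, Eif2d, Eif2b3 and Denr were named after their values were seen. So were Ifit3, Oasl2, Irf7, Oas2, Shmt2, Sars and Aldh18a1. The genes and lists were chosen with earlier results of these data known. The steps were tested on simulated arrays. The alternatives were the background correction, offset, scaling, probe choice, detection threshold and filter, and the authors' values.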

Additional observations from a re-analysis of the deposited data

How the results depend on the processing

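The ratios of the 5 detected kinase and phosphatase genes, their counts past 1.5-fold and the medians of 5 pathway lists were recomputed under 8 alternatives. Of 96 alternative values, 92 moved by less than the SD between probes of a gene (0.29), or, for counts, not at all. Eif2ak1, at 0.04 by its brighter probe, was -0.30 as the mean of its probes. With median scaling the medians of the kinase activator and inhibitor list (-0.17) and of the eIF2 and eIF2B list (-0.03) were both 0.06, where the median of all genes was 0.14. The other ratios and medians kept their sign under all 8. Eif2ak3 was -0.18 without background correction and -0.17 in the authors' processed values. Also with median scaling 1 gene, Ppp1r15b, was at least 1.5-fold higher, where none was otherwise. Over all genes, 644 were at least 1.5-fold higher and 503 lower on the Dnmt2-/- array (56.1% higher). These counts were 186 and 106 without background correction, 294 and 189 with an offset of 50, 1340 and 180 (88.2% higher) with median scaling and 220 and 121 in the authors' processed values. The causes were not tested. The median of the interferon-stimulated list ran from -0.53 to -0.09 and that of the response targets from 0.08 to 0.25. No paired analysis was possible because each genotype has 1 array. Signals near background limit Eif2ak3, Eif2ak4 and the dimmer probe of Eif2ak1.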
